A study of Mus musculus with 43 samples.

Results

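The carboxylesterases described here were 8 mouse genes, Ces1d, Ces1e, Ces1f and Ces1g of the Ces1 subfamily and Ces2a, Ces2b, Ces2c and Ces2e of the Ces2 subfamily. They were taken by symbol from the 23951 genes of the bulk expression tables and from the 54307 gene rows of the single-cell matrices, where each symbol had 1 row. The choice was made with the expression values of these same libraries in view. Their values are therefore given as a description, with standard errors and without p-values.

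Carboxylesterases are serine hydrolases that sit mostly in the lumen of the endoplasmic reticulum and cleave esters of drugs, prodrugs and dietary compounds as well as acylglycerols and cholesteryl esters. In mice the family has grown by tandem duplication into clusters of similar genes on chromosome 8. Ces2 enzymes are typical of absorptive cells of the small intestine, while many Ces1 enzymes are best known from liver. Nuclear receptors that sense foreign compounds, such as PXR (Nr1i2) and CAR (Nr1i3), are known to raise the expression of several members.

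All bulk libraries came from primary intestinal organoids of wild-type C57BL/6 mice, which are epithelial cultures without stroma, immune cells or vessels. In each condition 3 libraries received vehicle and 3 received TGFB1 at 2 ng/mL, both for 24 h from day 6. Organoids harvested on day 7 either had no irradiation (D7 non-IR) or had received 4 Gy on day 4 (D7 IR), and the last condition had the same irradiation but was harvested on day 11 (D11 IR). By the labels, TGFB1 had thus been stopped at the time of the D7 collection, and the D11 organoids were collected later. Single-cell libraries, 1 per time, came from organoids given 4 Gy on day 4 and collected on day 8 after vehicle (0 h) or 6, 15 or 24 h of 1 ng/mL TGFB1, a lower dose than in the bulk cultures. Another 3 single-cell libraries held Ki67-RFP+ DAPI- crypt cells of Mki67tm1.1Cle/J mice, sorted from the proximal small intestine: 1 library of a non-irradiated littermate and 2 libraries 56 h after 12 Gy. That reporter marks cycling cells, so the sort selects against mature enterocytes. No label says whether the 3 bulk libraries of a group came from separate mice or cultures, so the errors measure the spread between these libraries, which may be technical.

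Bulk values were FPKM, fragments scaled by gene length and library size, so levels of different genes can be compared. Total FPKM ranged from 447728 to 621996, between 11040 and 11361 genes reached 1 FPKM, and the read depth is unknown. The single-cell libraries held 699 to 4283 cells after filtering, with medians of 6709 to 14399 unique molecular identifiers (UMIs) a cell. Their values are CPM, the UMIs of a gene over all kept cells of a library scaled to a common total. Of the markers of other tissues, 0 of 4 endothelial, 1 of 6 mesenchymal (Vim), 2 of 6 immune (Cd74, Lyz2) and 2 of 5 hepatocyte markers (Ttr, Cyp2e1) were high enough to be fitted in any TGFB1 comparison, while Pecam1, Col1a1, Ptprc and Alb stayed at means of 0.161, 0.397, 0.0617 and 1.73 FPKM or less in every bulk group. With TGFB1 Cd74 rose at D7 non-IR and D7 IR and Lyz2 at D7 IR and D11 IR, Cyp2e1 fell in all 3 conditions, Ttr fell at D7 IR and D11 IR, and Vim fell at D11 IR; the part of such cells in the results was not tested. The enterocyte enzymes Sis and Alpi reached 528.8 and 1397 FPKM.

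Promoter sequences are shown because the Ces1 members were lower with TGFB1 in each condition while Ces2b and Ces2c were higher at D7 IR. Ces2a and Ces2e were lower in each condition, as the Ces1 members were. In other comparisons members of the same subfamily moved apart, so the split by subfamily does not hold throughout. RefSeq gave the 250 bases before the transcription start for 5 of the 8 genes, on build GRCm38.p6. Each is printed 5′ to 3′ on the strand of its gene, which ends at the base before the start. Capitals mark TTATGTAA in Ces1 genes, the D-box to which PAR-domain bZIP factors bind, and the octamer ACTTTGCC in Ces2 genes. Both were chosen after the sequences had been read.
Ces1e, chr8:93229620-93229869, minus strand: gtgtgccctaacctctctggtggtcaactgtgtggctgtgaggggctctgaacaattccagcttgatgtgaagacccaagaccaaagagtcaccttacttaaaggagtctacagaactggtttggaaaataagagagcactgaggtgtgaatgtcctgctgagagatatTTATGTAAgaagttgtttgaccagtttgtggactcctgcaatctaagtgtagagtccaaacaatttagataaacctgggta
Ces1g, chr8:93337210-93337459, minus strand: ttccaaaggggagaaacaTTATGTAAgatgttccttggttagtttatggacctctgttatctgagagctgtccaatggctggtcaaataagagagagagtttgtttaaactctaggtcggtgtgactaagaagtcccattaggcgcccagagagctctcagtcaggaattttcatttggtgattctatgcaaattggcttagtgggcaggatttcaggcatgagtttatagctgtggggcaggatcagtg
Ces2a, chr8:104733753-104734002, plus strand: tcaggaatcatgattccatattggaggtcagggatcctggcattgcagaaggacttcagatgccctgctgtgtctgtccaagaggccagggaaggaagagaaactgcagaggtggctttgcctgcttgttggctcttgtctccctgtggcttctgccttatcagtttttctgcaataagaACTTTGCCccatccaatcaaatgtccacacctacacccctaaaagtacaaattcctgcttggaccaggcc
Ces2c, chr8:104846818-104847067, plus strand: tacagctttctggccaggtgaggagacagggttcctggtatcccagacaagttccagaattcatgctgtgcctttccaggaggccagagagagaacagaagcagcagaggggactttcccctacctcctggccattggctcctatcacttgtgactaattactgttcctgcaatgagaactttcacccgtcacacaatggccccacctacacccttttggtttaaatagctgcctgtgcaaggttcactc
Ces2e, chr8:104926010-104926259, plus strand: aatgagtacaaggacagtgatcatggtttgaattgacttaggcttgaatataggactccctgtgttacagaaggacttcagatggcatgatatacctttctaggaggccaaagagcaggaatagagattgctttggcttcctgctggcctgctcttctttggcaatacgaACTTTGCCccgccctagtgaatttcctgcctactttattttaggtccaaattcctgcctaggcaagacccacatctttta

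TTATGTAA (TTACATAA on the other strand) began 81 bases before the start of Ces1e and 232 bases before that of Ces1g, and it was also found before Ces1b and Ces1c. Of 32841 promoter windows of this length, 269 (0.819%) held it on either strand. ACTTTGCC (GGCAAAGT on the other strand) began 70 bases before the start of Ces2a and 80 bases before that of Ces2e, and 117 bases before that of their relative Ces2g. It was found in 263 windows (0.801%), and not in the Ces2c window. An HNF4-type repeat, CAAAGNNCA, stood in Ces2e and in 5.49% of windows. The SMAD element CAGAC, which is bound by the transcription factors of the TGFB pathway, stood in Ces2a and Ces2c and in 42.2% of windows. It also stood before the relatives Ces1b and Ces1c. The AP-1 site TGANTCA (6.75% of windows) and the HNF1-type motif GTTAAT (6.43%) had no match in the 5 windows. All motifs were searched on both strands, and a match describes letters, not a bound site.

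Ces2e was the most abundant member in every group, and Ces2b and Ces1g were the least abundant in the D7 vehicle organoids. In D7 non-IR organoids with vehicle the order by mean FPKM was Ces2e (105.7), Ces1d (33.0), Ces1f (27.1), Ces2c (22.7), Ces2a (21.7), Ces1e (6.20), Ces1g (2.83) and Ces2b (0.344), and no neighbours in that order overlapped. Ces1d stood in the sixth place after irradiation, and the order at D7 IR was Ces2e (345.1), Ces2a (110.0), Ces2c (75.4), Ces1f (64.6), Ces1e (19.6), Ces1d (13.7), Ces1g (1.78) and Ces2b (0.991). At D11 IR, Ces2e (267.8) and Ces2a (110.4) led again, Ces1f (45.2), Ces2c (40.2) and Ces1d (39.0) overlapped, and so did Ces1e (9.52) and Ces1g (9.09). The 8 genes together summed to 219.4 ± 2.86 FPKM (SD, n = 3) in D7 non-IR vehicle organoids, 631.2 ± 10.5 FPKM at D7 IR and 522.5 ± 38.9 FPKM at D11 IR.

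Ces1 genes were lower with TGFB1 in each of the 3 conditions, and for all 4 genes the vehicle and TGFB1 libraries did not overlap in any condition. Falls were common, as a limma fit called 34.9, 39.7 and 31.6% of all genes lower at D7 non-IR, D7 IR and D11 IR. The share of all genes without overlap was not counted. Ces1d encodes a triacylglycerol hydrolase known from lipid mobilisation in liver. Its FPKM in D7 non-IR organoids were 35.9, 32.1 and 30.9 with vehicle and 2.55, 2.86 and 3.05 with TGFB1. At D7 IR they were 13.6, 14.6 and 13.0 against 2.11, 2.60 and 1.80. At D11 IR they were 42.4, 41.4 and 33.0 against 4.31, 4.70 and 4.27. Ces1d thus lay between 1.80 and 4.70 FPKM in all 9 TGFB1 libraries and between 13.0 and 42.4 FPKM in the vehicle libraries. With vehicle and with TGFB1 its mean was lowest at D7 IR and highest at D11 IR. The conditions may have been scaled separately. As the log2 change of FPKM + 1, a scale that understates changes of low genes, the differences were -3.15 ± 0.07 (SE), -2.22 ± 0.09 and -2.87 ± 0.10, or 11.7-fold, 6.31-fold and 8.80-fold lower mean FPKM.

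Ces1f, a close relative of Ces1d, stood at 25.2, 27.4 and 28.6 FPKM with vehicle and 1.55, 1.57 and 1.23 with TGFB1 in D7 non-IR organoids. In the D7 IR cultures the values were 64.6, 66.3 and 62.9 against 14.3, 16.6 and 12.3, and at D11 IR 37.8, 46.2 and 51.7 against 11.3, 8.77 and 14.4. Its mean was 18.7-fold, 4.48-fold and 3.94-fold lower, so the fold was largest without irradiation. The log2 changes were -3.52 ± 0.07, -2.10 ± 0.09 and -1.90 ± 0.17.

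Ces1e, also called egasyn, retains β-glucuronidase in the endoplasmic reticulum. It stood at 6.52, 6.33 and 5.74 FPKM with vehicle and 0.763, 1.04 and 0.514 with TGFB1 in D7 non-IR organoids, at 20.4, 19.5 and 18.9 against 4.10, 4.21 and 4.39 at D7 IR, and at 8.76, 9.72 and 10.1 against 2.90, 3.58 and 4.17 at D11 IR. The log2 changes were -2.03 ± 0.11, -1.98 ± 0.05 and -1.22 ± 0.12. Ces1e thus showed its smallest difference at D11 IR.

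Ces1g, whose loss is known to raise blood lipids in mice, had the lowest level of the Ces1 members in D7 vehicle organoids. Its FPKM were 2.698, 3.05 and 2.75 with vehicle and 0.310, 0.0143 and 0.189 with TGFB1 in D7 non-IR organoids, 1.89, 1.77 and 1.70 against 0.153, 0.246 and 0.135 at D7 IR, and 9.01, 10.0 and 8.26 against 0.675, 0.578 and 0.548 at D11 IR. The log2 changes were -1.72 ± 0.11 and -2.65 ± 0.10 in D7 non-IR and D11 IR organoids. At D7 IR the gene fell under the filter of a mean of 1 FPKM and was not fitted, with a 10.0-fold lower mean.

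Ces2a, Ces2c and Ces2e were lower with TGFB1 in D7 non-IR and D11 IR organoids, and at D7 IR the Ces2 members split. Ces2e, whose FPKM made up 31.9 to 51.4% of the whole family, stood at 103.2, 109.7 and 104.2 with vehicle and 26.5, 25.3 and 25.7 with TGFB1 in D7 non-IR organoids. At D7 IR its values were 340.1, 351.5 and 343.5 against 259.2, 267.7 and 266.9, and at D11 IR 250.8, 259.6 and 293.1 against 44.3, 46.4 and 47.7. The groups did not overlap in any condition, but the difference at D7 IR was 1.30-fold, against 4.09-fold in D7 non-IR and 5.80-fold in D11 IR organoids. The log2 changes were -1.99 ± 0.04, -0.38 ± 0.03 and -2.51 ± 0.09.

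Ces2a, a hydrolase of acylglycerols, stood at 21.8, 21.2 and 22.1 FPKM with vehicle and 6.24, 6.56 and 5.97 with TGFB1 in D7 non-IR organoids. In D7 IR organoids the values were 109.0, 113.0 and 108.0 against 104.9, 105.5 and 98.3, so that the nearest libraries of the 2 groups were close together. By D11 IR they were 108.3, 100.8 and 122.2 against 37.2, 29.2 and 46.9. The log2 changes were -1.64 ± 0.05, -0.10 ± 0.04 and -1.54 ± 0.16.

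Ces2c, an intestinal hydrolase of di- and triacylglycerols, differed in direction between conditions. Its FPKM were 22.5, 22.5 and 23.04 with vehicle and 10.3, 11.0 and 10.2 with TGFB1 in D7 non-IR organoids. At D7 IR all 3 TGFB1 libraries were above all vehicle libraries, at 106.5, 106.7 and 104.5 against 75.9, 75.5 and 74.8. At D11 IR they were below again, at 12.6, 13.4 and 10.9 against 36.1, 37.4 and 47.2. The log2 changes were -1.04 ± 0.04, 0.48 ± 0.03 and -1.63 ± 0.11.

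Ces2b was near the limit of detection outside D7 IR organoids with TGFB1. It stood at 0.272, 0.450 and 0.312 FPKM with vehicle and 0.289, 0.383 and 0.230 with TGFB1 in D7 non-IR organoids, where the groups overlapped. At D7 IR it was 1.20, 0.974 and 0.793 against 3.70, 3.32 and 2.49, a 3.20-fold higher mean and a log2 change of 1.06 ± 0.12. At D11 IR the values were 1.08, 1.14 and 1.31 against 0.318, 0.411 and 0.259, under the filter of the fit. Ces2 genes are close copies of each other, and no source used here says how reads were divided between copies, so values of single Ces2 genes are less certain than their sum.

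**Figure D1:**
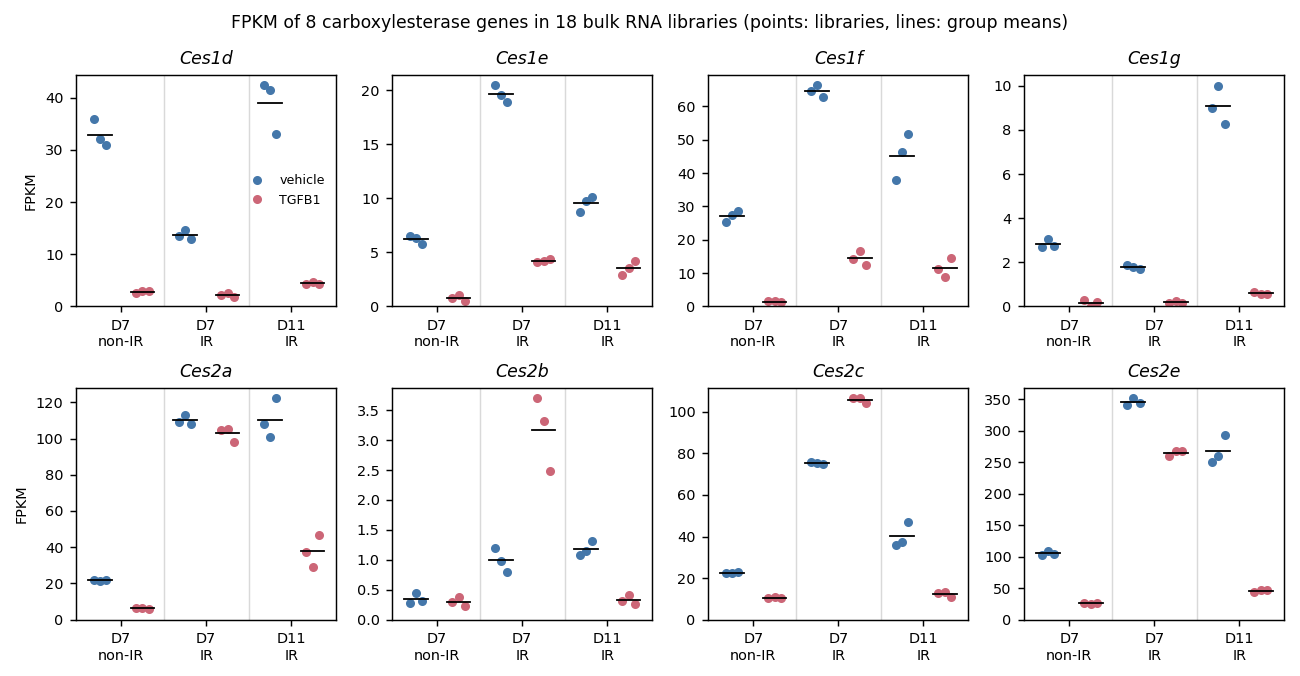
FPKM (y axis, linear, a scale of its own for each gene) of the 8 carboxylesterase genes in the 3 vehicle (blue) and 3 TGFB1 (red) libraries of each condition (x axis), with lines at the group means. The 4 Ces1 genes are lower with TGFB1 in all 3 conditions, whereas at D7 IR Ces2c and Ces2b are higher and Ces2a and Ces2e stay near their vehicle level.

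By sums, Ces1 members went from 69.1 ± 1.14 (SD, n = 3) to 5.21 ± 0.259 FPKM in D7 non-IR organoids, from 99.7 ± 2.96 to 21.0 ± 2.52 at D7 IR and from 102.8 ± 4.69 to 20.1 ± 2.98 at D11 IR. Ces2 members went from 150.4 ± 3.15 to 42.9 ± 0.679, from 531.5 ± 8.30 to 476.5 ± 5.96 and from 419.6 ± 38.3 to 96.6 ± 8.38 FPKM. In the fit over all genes with limma, 7 of the 7 members fitted were called lower in D7 non-IR organoids, where 68.2% of all genes fitted were called (34.9% lower). At D7 IR 5 were called lower and 2 higher of 7, against 75.5% called (39.7% lower, 35.8% higher), and without any 1 of the 3 vehicle libraries 4 were called lower. At D11 IR 7 of 7 were called lower, against 63.9% called (31.6% lower). The median log2 change of the members fitted was -1.99, -0.38 and -1.90, that of all genes -0.02, -0.03 and 0.01. Since the members were chosen on these comparisons, these counts describe the choice and are not evidence of their own.

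The TGFB1 differences of the members can also be set against each other between conditions, as the interaction terms of the fit. Since the members were chosen with these values in view, the terms and the counts of calls are a description and support nothing. The TGFB1 effect at D7 was less negative or more positive with irradiation for 7 of 8 members, and 53.1% of all genes were called in this interaction (25.3% higher, 27.8% lower). The differences were 1.61 ± 0.05 log2 units for Ces2e, 1.55 ± 0.06 for Ces2a, 1.53 ± 0.05 for Ces2c, 1.42 ± 0.12 for Ces1f, 1.11 ± 0.16 for Ces2b, 0.93 ± 0.12 for Ces1d and 0.48 ± 0.13 for Ces1g. Ces1e, with 0.05 ± 0.12, was the member with no call. Its TGFB1 level at D7 non-IR was about 1 FPKM or less, where the scale of FPKM + 1 understates a fall. Between D7 IR and D11 IR the TGFB1 effect was more negative at D11 for 6 members and less negative for 1, where 64.5% of all genes were called (33% lower, 31.5% higher). The differences were -2.13 ± 0.09 for Ces2e, -2.11 ± 0.13 for Ces2c, -1.77 ± 0.17 for Ces2b, -1.45 ± 0.18 for Ces2a, -1.41 ± 0.13 for Ces1g and -0.65 ± 0.15 for Ces1d. Ces1e went the other way with 0.76 ± 0.13, and Ces1f had no call with 0.20 ± 0.22. Ces1g lay under 1 FPKM with TGFB1 at D7 IR and D11 IR. The scale understates its fall more at D7 IR, where its vehicle level was lower, so its difference between days depends on the scale. The interactions with irradiation and with day share the D7 IR libraries.

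**Figure D2:**
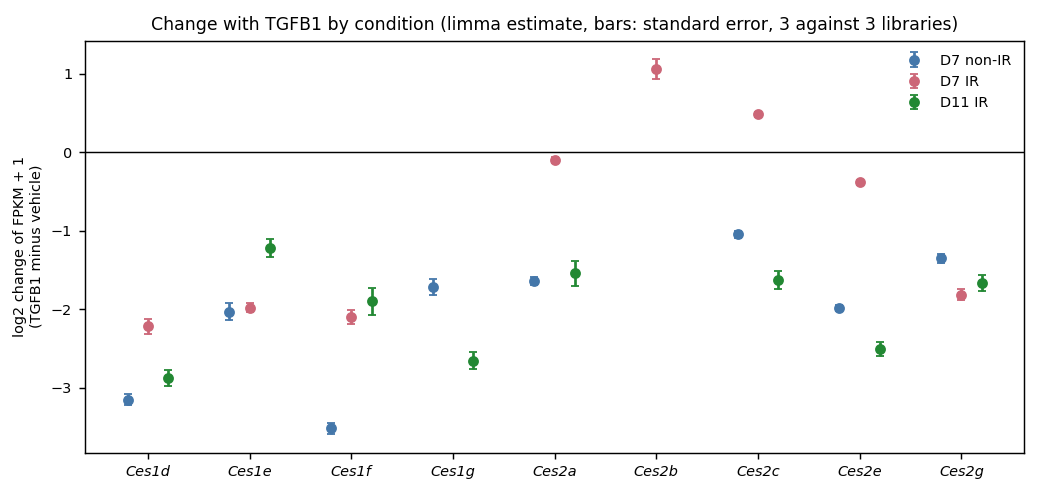
Log2 change of FPKM + 1 with TGFB1 (y axis, TGFB1 minus vehicle) for the 8 members and Ces2g (x axis), where a mean of 1 FPKM allowed a fit, at D7 non-IR (blue), D7 IR (red) and D11 IR (green); points are limma estimates from 3 against 3 libraries and bars are standard errors. The D7 IR points of Ces2a, Ces2c and Ces2e lie at -0.10, 0.48 and -0.38, above the values of these genes in the other conditions; Ces2b has a point at D7 IR only (1.06), and Ces2g and the 4 Ces1 members are below -1 wherever they were fitted.

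The remaining family genes were mostly silent. Of 12 further carboxylesterase symbols 11 were in the tables. Ces1a, Ces3b and Ces4a were listed at 0 in all 18 libraries, and Ces2d-ps, Ces2f, Ces2h, Ces3a and Ces5a stayed at or under 1.19 FPKM in each library. Ces2g, a close relative of the Ces2 members, was lower with TGFB1 in every condition, from 13.0 to 4.49 FPKM at D7 non-IR, from 56.1 to 15.3 at D7 IR and from 88.5 to 27.4 at D11 IR. Its log2 changes were -1.35 ± 0.05, -1.81 ± 0.07 and -1.67 ± 0.11 (limma, adjusted p = 3.95e-09, 2.98e-09 and 1.00e-06). Unlike the 4 Ces2 members, Ces2g had a more negative TGFB1 effect with irradiation (-0.46 ± 0.09, adjusted p = 0.000518 for the interaction), and the effect did not pass the test between days (0.15 ± 0.13, adjusted p = 0.357). Ces1b was at 1.10 against 1.37 FPKM in D7 non-IR organoids (adjusted p = 0.103), and it fell with TGFB1 from 1.76 to 0.636 at D7 IR and from 2.46 to 0.0907 at D11 IR (limma, adjusted p = 0.000226 and 1.35e-06). Ces1c fell from 3.702 to 1.53 FPKM in D7 non-IR organoids (adjusted p = 1.77e-05), and in the irradiated organoids it was too low to be tested.

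Irradiation alone went with higher levels of Ces2a, Ces2c, Ces2e, Ces1e and Ces1f and a lower Ces1d level. This comparison sets levels of separately deposited tables side by side, which may have been scaled separately, so it has no test; a gene counts as different where the means differ at least 2-fold and the libraries do not overlap. Of 7 members at 1 FPKM or more, 5 were higher and 1 lower at D7 IR than at D7 non-IR with vehicle, where 20.5% of all genes differed (9.87% higher, 10.6% lower). Ces2a was 5.08-fold, Ces2c 3.32-fold, Ces2e 3.27-fold, Ces1e 3.17-fold and Ces1f 2.39-fold higher, Ces1d was 2.41-fold lower, and Ces1g was 1.59-fold lower without overlap. Among relatives Ces2g was 4.32-fold higher and Ces1c 8.20-fold lower. With TGFB1 in both, 6 of 7 members were higher at D7 IR, where 24.4% of all genes differed (11.6% higher): Ces2a 16.4-fold, Ces2b 10.5-fold, Ces2e 10.2-fold, Ces2c 10.1-fold, Ces1f 9.95-fold and Ces1e 5.47-fold, while the Ces1d libraries overlapped.

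From D7 IR to D11 IR in vehicle organoids the Ces1 genes moved apart. Ces1g was 5.10-fold and Ces1d 2.85-fold higher at D11, and Ces1e was 2.06-fold lower, against 10.3% of all genes that differed (6.06% higher, 4.2% lower). The Ces1e difference lies close to the 2-fold limit: without vehicle replicate 1 of D11 no member counted as lower, and without replicate 3 of D11 there were 2. Ces2c was 1.87-fold, Ces1f 1.43-fold and Ces2e 1.29-fold lower without overlap, and Ces2a (110.0 and 110.4 FPKM) and Ces2b overlapped. All 12 enterocyte markers were lower at D11 than at D7 IR in vehicle organoids, 9 of them at least 2-fold.

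Markers of mature enterocytes moved with several of these differences. Of the 12 markers, which include Fabp1, Sis and Alpi, all were higher without overlap at D7 IR than at D7 non-IR with vehicle, 9 of them at least 2-fold. With TGFB1, 4 rose and 8 fell in D7 non-IR organoids (median -0.99), 6 rose and 5 fell at D7 IR (median 0.29), and 1 rose and 8 fell at D11 IR (median -0.69). In the interaction of TGFB1 with irradiation 9 markers were higher and 1 lower, and in that with day 10 of 12 were lower. Fabp1, a fatty acid carrier of enterocytes, was at 683.3 and 276.6 FPKM (vehicle and TGFB1) in D7 non-IR organoids, at 3731 and 3987 at D7 IR and at 938.3 and 450.6 at D11 IR. Proliferation markers fell in 6 and 8 of 8 cases at D7 non-IR and D7 IR and in 1 of 8 at D11 IR, where 2 rose. Regenerative markers, such as Clu and Anxa1, rose in 7, 6 and 6 of 7 cases (medians 1.76, 1.93 and 3.07). Of the enteroendocrine markers 1 rose and 2 fell of 7 tested at D7 non-IR, 7 rose and 0 fell of 8 at D7 IR, and 0 rose and 7 fell of 8 at D11 IR (medians -0.10, 0.79 and -1.14). In bulk libraries fewer cells of a type and less RNA per cell cannot be told apart, and the part of cell composition in the carboxylesterase differences was not tested in them.

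Other lipid and drug-handling genes gave a mixed picture beside the carboxylesterases. Of 16 other ester and neutral lipid hydrolases tested, 6 rose and 9 fell with TGFB1 in D7 non-IR organoids, 6 rose and 7 fell at D7 IR, and 3 rose and 10 fell at D11 IR (medians -0.23, -0.05 and -0.83). Called in all 3 conditions were 10, of which 5 fell and 3 rose each time. Ephx1, the microsomal epoxide hydrolase, fell from 185.4 to 69.7 FPKM, from 188.1 to 63.7 and from 308.8 to 107.0 (limma, adjusted p = 3.08e-10, 1.94e-08 and 2.02e-06). Bche, butyrylcholinesterase, fell by 2.06, 0.21 and 1.22 log2 units. Abhd5, the activator of adipose triglyceride lipase, rose by 0.88, 1.18 and 1.505 log2 units, and Lipa, the lysosomal acid lipase, rose by 0.67, 1.39 and 0.60. Ddhd2, a brain triglyceride lipase, fell by 0.33, 0.17 and 1.69, and Pon2, a paraoxonase, rose by 0.34, 0.45 and 1.05. Aadac, arylacetamide deacetylase, was picked after its values were seen: it fell from 77.8 to 19.1 FPKM at D7 non-IR, was at 223.8 and 222.8 FPKM at D7 IR (adjusted p = 0.879), and fell from 99.8 to 35.8 at D11 IR (adjusted p = 1.05e-07 and 2.36e-07 for the 2 falls).

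Of the genes of triacylglycerol synthesis and lipoprotein assembly, a list that shares Apob, Fabp1 and Fabp2 with the enterocyte markers, 6 rose and 8 fell of 14 tested at D7 non-IR, 8 rose and 5 fell of 15 at D7 IR, and 1 rose and 10 fell of 14 at D11 IR. In the interaction with irradiation 14 of its 15 genes were higher and 1 lower (median 0.67). Apob, the structural protein of chylomicrons, rose by 0.86, 1.71 and 0.74 log2 units. Fabp2, the intestinal fatty acid binding protein, fell by 1.88, 0.23 and 0.92. Cideb, a lipid droplet protein, fell by 0.23 and 1.63 at D7 non-IR and D11 IR and rose by 0.44 at D7 IR. Soat2, which esterifies cholesterol, fell by 1.09, 0.20 and 0.65. Dgat1, which makes triacylglycerol, fell by 1.06, 0.17 and 0.77. Plin2, a lipid droplet coat protein, rose by 1.22 and 1.45 at D7 and fell by 0.31 at D11.

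Among 16 transcription factors linked to carboxylesterase genes, 3 rose and 11 fell at D7 non-IR, 3 rose and 10 fell at D7 IR, and 3 rose and 11 fell at D11 IR (medians -0.28, -0.25 and -0.61). Nr1i3 (CAR) fell from 11.1 to 3.17 FPKM, from 27.2 to 19.2 and from 19.7 to 2.81, or by 1.54, 0.48 and 2.44 log2 units (limma, adjusted p = 6.76e-09, 3.80e-05 and 2.48e-07). Ppara, a fatty acid sensor, fell by 0.96, 0.80 and 0.91, and Hnf4g by 1.26, 0.37 and 0.74. Ahr, the aryl hydrocarbon receptor, rose by 0.75, 0.18 and 0.97. Rxra, the partner of many nuclear receptors, fell by 0.53, 0.24 and 0.78, and Cdx2, an intestinal identity factor, by 0.66, 0.37 and 0.39. Of 15 phase II conjugation enzymes tested, 2 rose and 13 fell at D7 non-IR, 3 rose and 11 fell at D7 IR, and 2 rose and 10 fell at D11 IR (medians -1.25, -0.36 and -0.81). Ugt1a1, which conjugates bilirubin, fell by 1.76, 1.07 and 1.84 log2 units, and Ugt2b35 by 1.90, 1.38 and 1.10. Sult1c2, a sulfotransferase, fell by 1.83, 1.27 and 1.14. The glucuronosyltransferase genes Ugt2a3 and Ugt2b34 fell by 1.87, 1.29 and 0.93 and by 1.62, 0.79 and 0.81, whereas Ugt2b36 fell by 1.89 and 1.32 at D7 and rose by 0.62 at D11 IR. In the interaction with irradiation 10 of the 15 were higher and 1 lower, 7 higher and 3 lower of the 16 factors, and 8 higher and 2 lower of the 16 hydrolases.

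Across the 18 bulk libraries the members fell into pairs with like profiles. As Pearson r of log2(FPKM + 1), Ces1e and Ces1f had 0.972, Ces1d and Ces1g 0.938, Ces2c and Ces2e 0.927, and Ces2a and Ces2e 0.909, whereas Ces1d and Ces2c had 0.084. Likeness did not follow the subfamilies throughout. Ces1f and Ces2e had 0.853 and Ces1e and Ces2e 0.849, above Ces1d with Ces1f (0.708) and with Ces1e (0.637). Of 11473 genes, Gstm3, a glutathione S-transferase, was nearest to both Ces1f (0.989) and Ces1e (0.975). Aoc1, a diamine oxidase, was nearest to Ces2a (0.995), Cgref1 to Ces2c (0.989) and Smim24 to Ces2e (0.998). The nearest genes of Ces1d, Ces1g and Ces2b were 1700019D03Rik (0.977), 1700001L05Rik (0.972) and Ube2l6 (0.961). These values describe 18 libraries that share 6 conditions and 3 tables. Related genes may share reads, which was not tested in the bulk libraries.

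In single cells of irradiated organoids Ces1 and Ces2 parted over the first 24 h of TGFB1. Ces1 members together stood at 202.8 CPM at 0 h, 182.3 at 6 h, 113.1 at 15 h and 58.2 at 24 h, a ratio of 24 h to 0 h of 0.287 (95% Poisson interval 0.272 to 0.303, counting error only). Ces2 members together stood at 1401, 1470.3, 1747 and 1449.8 CPM, a ratio of 1.04 (1.02 to 1.05). Each time was 1 library, so there is no test of time or TGFB1. With whole-number entries alone, or with a stricter cell filter, settings chosen for these sums after seeing the data, the ratio for Ces2 members was 0.919 and 0.997, so its direction is not settled.

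Ces1d went from 40.5 CPM at 0 h and 40.5 at 6 h to 15.4 at 15 h and 4.57 at 24 h, 8.85-fold lower at 24 h. Ces1f went from 125.1 and 117.5 to 82.0 and 41.3 CPM. Ces1e was lower already at 6 h, with 34.6, 21.8, 14.6 and 11.9 CPM. Ces1g, at 2.65, 2.38, 1.14 and 0.392 CPM, rested on few UMIs. All 4 Ces1 members were lowest at 24 h.

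Ces2a stood at 438.0, 510.1, 651.6 and 560.2 CPM over the 4 times, Ces2c at 363.7, 372.7, 456.5 and 396.6, and Ces2b at 2.01, 3.27, 4.75 and 4.02. Ces2e stood at 596.8, 584.3, 634.2 and 489.0 CPM, lowest at 24 h. All 4 Ces2 members were highest at 15 h, which for Ces2b rested on 125 UMIs at 15 h and 123 at 24 h. Ces2g, outside the members, went the way of Ces1 with 39.0, 32.2, 21.1 and 15.6 CPM. Beside them Clu, a marker of regenerating epithelium, went from 13.3 to 67.8, 324.6 and 773.3 CPM, and Fabp1 stood at 8377, 9067, 8917 and 5856 CPM. Part of the UMIs of the Ces2 members came from fractional entries, which arise where a UMI fits several genes. At 0, 6, 15 and 24 h this part was 34.36, 34.62, 47.85 and 47.64% for Ces2a and 26.97, 28.62, 38.5 and 38.05% for Ces2e. It was thus larger at 15 and 24 h for both genes. How much of their differences over time came from fractional entries was not tested gene by gene. In the 4 organoid libraries it was 36.6 to 52.8% for Ces2b and 11.7 to 27.5% for Ces2c. In the Ki67-RFP+ libraries it was 9.216 to 37.76% for Ces2a, 2.54 to 6.511% for Ces2e, 18.84 to 37.03% for Ces2b and 1.975 to 4.775% for Ces2c. For any Ces1 member it was at most 6.87% in any of the 7 libraries. In the organoids, and for Ces2a and Ces2b in the Ki67-RFP+ cells, the split among Ces2 genes is therefore less certain than their sum.

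**Figure D3:**
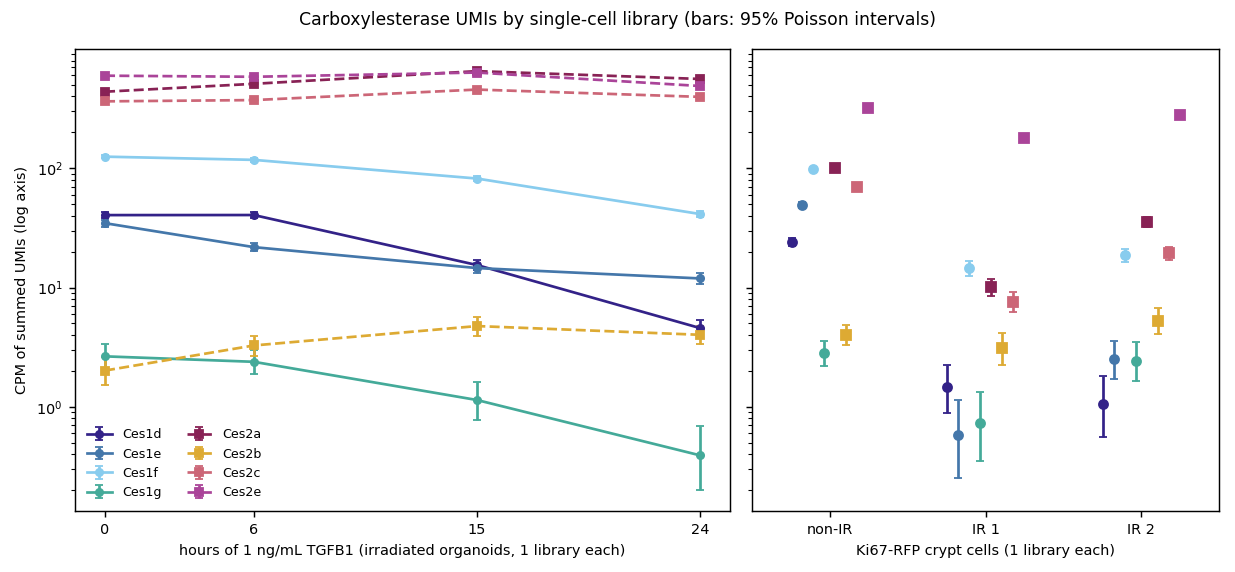
CPM of summed UMIs (y axis, log scale) of the 8 genes by hours of TGFB1 in irradiated organoids (left; 1 library each) and in the 3 libraries of Ki67-RFP+ crypt cells (right; non-IR, and IR replicates 1 and 2); circles are Ces1 and squares Ces2 genes, and bars are 95% Poisson intervals for counting error. The Ces1 lines descend to 24 h, from 202.8 to 58.2 CPM in sum, while those of Ces2a, Ces2c and Ces2e stay between 363.7 and 651.6 CPM.

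The share of cells with a UMI showed the same parting. After each cell was thinned to 2000 UMIs, 28.01, 25.4, 16.6 and 9.06% of cells had a UMI of any Ces1 member at 0, 6, 15 and 24 h, and 70.1, 67.5, 67.3 and 64.3% had a UMI of any Ces2 member (Clopper-Pearson interval at 24 h 62.3 to 66.3%). Without thinning, 90.1, 86.1, 86.7 and 87.2% of cells had a UMI of any member. Thinning left out 1 cell at 0 h and 5 at 6 h. For comparison, in the cluster led by the goblet gene Tff3 and the hormone gene Cck, with medians of 4755 to 6523 UMIs a cell, 10.3, 7.69, 5.80 and 1.23% of cells had a Ces1 UMI and 41.2, 34.1, 40.6 and 45.7% a Ces2 UMI. Stem-like cells, with 30.0, 23.1, 24.8 and 17.2%, and proliferating-like cells, with 40.3, 36.1, 23.7 and 18.1%, did not exceed those Ces2 shares by more than counting error. The Tff3 and Cck cluster may itself express Ces2 genes, and the part of free RNA in these shares was not tested.

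Of the named classes, enterocyte-like cells had the highest Ces2 levels at all 4 times. Cells were clustered without any carboxylesterase gene. The main enterocyte-like cluster, led by the sugar transporter gene Slc5a4b and by Ggt1, had Ces2 members at 3088, 3148, 3789 and 4067 CPM at 0, 6, 15 and 24 h and Ces1 members at 450.4, 422.4, 296.3 and 232.8 CPM (269, 643, 576 and 220 cells). In it Ces1d went from 89.3 to 17.8 CPM from 0 to 24 h, Ces1f from 293.2 to 183.7 and Ces1e from 60.7 to 30.0. Ces2a went from 765.0 to 1671 CPM in the same cluster, and Ces2e stood at 1416 and 1399. These levels include fractional entries, and their part in the cluster differences was not tested. Fabp1 stood there at 21327 CPM at 0 h and 16711 at 24 h.

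Another enterocyte-like cluster, led by Ada and Pnliprp2, carried more Ces2c and less Ces1. Its Ces2c level was 1927, 2006, 2599 and 1658 CPM, against 901.6, 872.4, 944.3 and 990.1 in the main cluster, and its Ces1 members summed to 128.0, 93.5, 40.4 and 56.8 CPM. Thinned to 2000 UMIs, 97.8 to 100% of its cells had a Ces2 UMI, whereas 23.8, 14.9, 4.396 and 9.78% had a Ces1 UMI, against 56.9, 48.9, 37.8 and 33.2% in the main cluster. The 2 clusters were compared within each library, and the values have counting error only.

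Outside the enterocyte-like cells, a cluster led by Gstm3, Leap2, Fabp1 and Sis that met no class rule held 28.8, 18.2, 3.36 and 0.0902% of cells at the 4 times, with Ces1 members at 406.9, 456.4 and 322.5 CPM at 0, 6 and 15 h (2 cells remained at 24 h). A cluster led by Ctrb1 and Reg3g, which held 0.102% of cells at 0 h and 14.3% at 24 h, had Ces1 members at 344.4, 222.5 and 109.3 CPM and Ces2 members at 2961, 3536 and 2717 CPM at 6, 15 and 24 h. Stem-like cells (Lgr5, Olfm4) had Ces1 members at 37.2, 20.7, 9.08 and 6.05 CPM, and proliferating-like cells at 52.7, 26.8, 9.16 and 6.96 CPM, against 40.0, 29.7, 20.7 and 15.4 CPM in the Tff3 and Cck cluster. Regenerative-like cells (Anxa1, Lgals3), which made up 0.409% of cells at 0 h and 11.5% at 24 h, had Ces2 members at 351.2 and 229.5 CPM at 15 and 24 h. At a clustering resolution of 1.0 the sum of all members went from 282.6 to 161.7 CPM in stem-like cells at 0 h and from 173.4 to 263.8 CPM in proliferating-like cells at 15 h, so levels in these classes depend on the clustering. The library ratios thus mix levels within clusters with shifts between clusters. Unnamed clusters held 47.0, 42.2, 42.7 and 50.0% of cells at the 4 times.

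**Figure D4:**
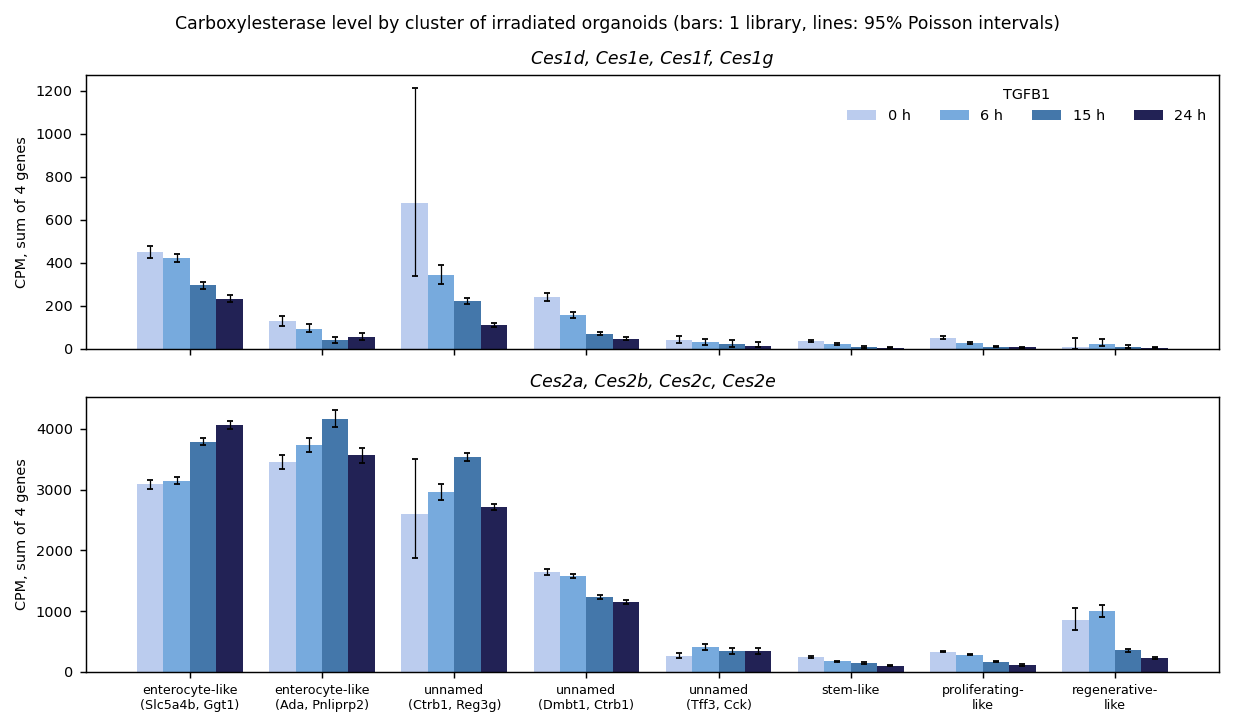
CPM (y axes, linear, from 0) of the 4 Ces1 genes together (top) and the 4 Ces2 genes together (bottom) in 8 clusters of irradiated organoid cells (x axis, with leading genes), 1 bar per library at 0, 6, 15 and 24 h of TGFB1 and lines for 95% Poisson intervals. Within the Slc5a4b and Ggt1 cluster Ces1 goes from 450.4 to 232.8 CPM while Ces2, with fractional entries included, goes from 3088 to 4067. The wide interval at 0 h in the Ctrb1 and Reg3g cluster rests on 3 cells.

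In Ki67-RFP+ crypt cells Ces1d, Ces1e, Ces1f, Ces2a, Ces2c and Ces2e were lower in both irradiated libraries than in the non-irradiated library, and of these Ces2e differed least. Ces1 members summed to 174.5 CPM without irradiation and to 17.3 and 24.6 CPM 56 h after 12 Gy, ratios of 0.0992 (0.0867 to 0.113) and 0.141 (0.125 to 0.158). Ces2 members summed to 493.1, 199.3 and 338.7 CPM, ratios of 0.404 (0.388 to 0.421) and 0.687 (0.663 to 0.711). With 1 non-irradiated library there is no test, and the irradiated crypts passed a 100 µm strainer and the non-irradiated crypts a 70 µm strainer.

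Ces1e was at 49.2 CPM without irradiation and at 0.583 and 2.51 CPM with it. Ces1d was at 24.1 against 1.46 and 1.05 CPM, and Ces1f at 98.4 against 14.5 and 18.6 CPM. Ces1g was at 2.81 against 0.728 and 2.43 CPM, and the interval of the ratio for replicate 2 included no difference (0.545 to 1.34). Ces2a was at 101.1 against 10.0 and 35.7 CPM and Ces2c at 69.8 against 7.58 and 19.3 CPM. Ces2e was at 318.3 against 178.6 and 278.4 CPM. Ces2b, at 4.02 against 3.10 and 5.27 CPM, did not differ beyond counting error. Fabp1 moved with them, at 1327 against 75.9 and 362.8 CPM.

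The irradiated and non-irradiated crypt cells shared few clusters. Enterocyte-like cells made up 16.1% of the non-irradiated library and 1.25 and 4.86% of the irradiated ones, and they came from different clusters: 295 of 298 cells in the non-irradiated library joined one that Reg3a and Fabp1 led, while all 9 and 32 of 34 irradiated cells joined one that Apoc2 and Cyp3a11 led. Their Ces2 members stood at 1369 CPM without and 2284 and 3023 CPM with irradiation, and their Ces1 members at 425.3 against 147.8 and 100.9 CPM. Stem-like cells, all from the non-irradiated library, had Ces1d at 37.2 CPM, above the 19.0 CPM of the Reg3a and Fabp1 cluster, whereas Ces1f was at 13.2 and 309.8 CPM in these clusters. Regenerative-like cells, all from the irradiated libraries and led by the small nuclear RNA 7SK beside S100a6 and Clu, had Ces2e at 348.4 and 348.2 CPM, Ces2a at 9.33 and 8.01 CPM and Ces1 members at 25.6 and 29.7 CPM. Goblet-like cells of the same libraries had Ces2e at 42.6 and 63.5 CPM.

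After thinning, 26.0% of non-irradiated and 4.45 and 4.29% of irradiated Ki67-RFP+ cells had a Ces1 UMI, and 49.3 against 29.9 and 40.6% had a Ces2 UMI. In goblet-like cells the Ces2 shares were 23.9, 7.89 and 10.0% and the Ces1 shares 4.48, 2.63 and 5.00%. The irradiated Ces1 shares were thus near those of goblet-like cells, while the Ces2 shares were above them in all 3 libraries. No pair of the 7 single-cell libraries shared more than 1 cell barcode.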

How the data were processed

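The bulk values are FPKM per gene as deposited by the authors in 3 tables, 1 per condition. Single-cell values are expected counts per gene and cell barcode as deposited, in part fractional, from PIPseq libraries per the labels. The deposited ATAC peak lists hold a −log10 q per peak; their build differs from that of the promoter table, and peaks at these genes were not analysed here. The submitters' processing notes name, without roles, TopHat2 2.1.0, Cuffnorm 2.2.1, STAR 2.7.10a, Salmon 1.4, Bowtie2 and MACS2 2.1.0 and the builds mm9, GRCm39 and mm39.

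Log2(FPKM + 1) was fitted, for genes whose mean reached 1 FPKM, with limma 3.58.1 (R 4.3.3; trend, robust), within each table for TGFB1 and over 12 libraries for interactions, with Benjamini-Hochberg adjusted p under 0.05 as the call. Fits were tested on simulated data. Levels across tables were compared without a test. Barcodes entered the sums of a library if they had 500 UMIs, 250 genes and no more than 20% of UMIs from mitochondrial genes. Intervals are exact (Poisson, or Clopper-Pearson for shares, 95%) and cover counting error only. Cells were clustered with scanpy 1.11.5 (2000 variable genes, 30 components, 15 neighbours, Leiden resolution 0.6), and no doublet caller was run. Clusters were named from marker lists, with limits on the naming (a median fold of at least 2, fewer than 5 pseudogene or predicted symbols among the top 10 genes) set after seeing the data.

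The carboxylesterases and all gene lists were chosen with earlier results of these data known. Of each list, up to 6 genes called in all 3 conditions were named, by mean absolute log2 change. Of the 3 nearest genes by Pearson r found for each member, the first is named.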

Additional observations from a re-analysis of the deposited data

Results flagged for a closer look

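Several carboxylesterases had TGFB1 effects that differed between conditions. For Ces2c all TGFB1 libraries lay below vehicle in D7 non-IR organoids and above it at D7 IR, an interaction of 1.53 log2 units, and below it again at D11 IR, an interaction with day of -2.11. Ces2b also lay above vehicle at D7 IR and below it at D11 IR, an interaction of -1.77. These 2 genes were noted because all libraries of one condition moved opposite to those of the other; they were chosen on these data, so their terms carry no p-value and the difference counts as not tested. Among the relatives the difference was tested with limma. Ces1b had a more negative effect with irradiation (-0.92, adjusted p = 0.000131) and a more negative effect at D11 (-0.91, adjusted p = 0.000276). Ces2g had a more negative effect with irradiation (-0.46, adjusted p = 0.000518). Ces1c had a less negative effect with irradiation (0.51, adjusted p = 0.0248), which rests on levels near 0 at D7 IR and reversed to -0.41 with a pseudocount of 0.1.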

How the results depend on the processing

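Of 737 single values of the 8 carboxylesterases under alternative settings, 699 stayed within 1 SD between libraries of the main log2 value. Another 38 moved further, and 0 of those called in the main setting reversed direction. The FPKM hold no read depth, and 1 library per time or non-irradiated sort leaves no replicate check. Asking for a 2-fold change beside the adjusted p left 956, 1484 and 1574 genes called with TGFB1 at D7 non-IR, D7 IR and D11 IR (7732, 8495 and 7335 before), 500 in the interaction with irradiation (6061) and 1880 in that with day (7387). Among members it left 1 higher and 3 lower at D7 IR and 0 higher in the interaction with day. For levels, a 1.5-fold limit gave 5057 genes for irradiation with vehicle, 2808 for D11 against D7 and 5466 for irradiation with TGFB1 (2305, 1156 and 2778 before), with 2 members lower in each of the first 2, and no filter gave 3766, 2379 and 4358.

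Leaving out each library in turn gave 7218 to 7596, 8100 to 8265 and 6464 to 7591 genes with TGFB1, 5683 to 5914 and 6937 to 7715 in the interactions, and 2274 to 2350, 1108 to 1248 and 2765 to 2807 for levels. Members lower ranged from 4 to 6 at D7 IR and from 0 to 2 for D11 against D7 (0 without vehicle replicate 1 of D11, 2 without replicate 3), and members higher in the interaction with irradiation from 6 to 7. The Ces1c interaction was -0.41 with a pseudocount of 0.1, and it did not pass the test with all 18 libraries in 1 fit or without any of 4 single libraries; the cause was not tested.

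The 24 h to 0 h ratio of all members (0.941) was 0.904 with a stricter cell filter, 0.819 with whole-number entries only, 0.913 outside mitochondrial and ribosomal protein genes and 0.977 as a mean over cells. For Ces2 members, an addition made after seeing the data, it was 0.997 and 0.919 under the first 2 of these, against 1.04; the cause was not tested. Thinned to 1000 UMIs, 60.2, 58.7, 58.7 and 53.8% of organoid cells at 0, 6, 15 and 24 h and 39.2, 18.8 and 25.04% of Ki67-RFP+ cells had a carboxylesterase UMI. With Leiden resolution 1.0 the sum of all members in stem-like cells was 161.7, 145.4 and 91.3 CPM at 0, 6 and 24 h, in proliferating-like cells 462.6, 380.8 and 263.8 at 0, 6 and 15 h, in regenerative-like cells 327.5 (15 h), 216.4 (24 h), 468.1 (Ki67-RFP+, irradiated replicate 1) and 455.8 (replicate 2), and in enterocyte-like cells 3349.5 at 0 h, each outside its counting interval at 0.6. The Ki67-RFP+ ratio of irradiated to non-irradiated (0.434) ranged from 0.324 to 0.544 over the irradiated libraries.

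Replicate numbers did not pair the libraries: same-numbered deviations correlated between -0.0856 and 0.213. With the replicate number as a block, 7701, 8417 and 7351 genes were called with TGFB1 and 5967 and 7451 in the interactions, with the same member counts.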
